A study of Mus musculus with 8 samples.

Results

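The MaLR class of LTR retrotransposons was followed in RNA sequencing libraries of mouse testis and of anti-RNF17 immunoprecipitates. Its members were all rows of the deposited transposon tables that carry the class name MaLR: 204 of the 1268 rows of each table, which are 102 families counted once in sense and once in antisense. They were 20 MT families, 25 ORR1 families and 57 MLT families, and 49 of the 102 were LTRs and 53 internal sequences by name. One table holds reads that map to a single place in the genome (unique reads) and the other holds reads that map to several places (multiple reads). Of the 204 rows, 2 had no unique read and 8 had no multiple read in any library.

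Mammalian apparent LTR retrotransposons are non-autonomous relatives of the ERVL retroviruses. A full element has a promoter-bearing LTR at each end of an internal sequence that codes for no complete set of retroviral proteins, and many copies are solitary LTRs left by recombination. MLT1 elements are old and shared among mammals, whereas MT and ORR1 elements belong to rodents, with MTA and ORR1A as the youngest branches. MT LTRs are best known as promoters and first exons of transcripts in mouse oocytes and early embryos, and in male germ cells such elements are among the targets of DNA methylation, repressive chromatin and PIWI-interacting RNAs. RNF17 belongs to the Tudor domain proteins of the germ line, a family that docks on PIWI proteins.

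The study compared C57BL/6 mice aged 6 weeks that were heterozygous (het) or homozygous (hom) for an Rnf17 variation named no further in the labels. Each genotype gave 2 whole-testis libraries made with no antibody and 2 immunoprecipitation (IP) libraries made with the RNF17 1774 antibody, 8 libraries in 4 groups of 2. For the IP, testis lysate was kept with antibody at 1 in 500 for 10 hours and with protein A beads for 2 hours, followed by 5 washes. Libraries were primed with not-so-random primers from 1 µg of total RNA and cut from a gel at 350 to 500 bp. All groups therefore carry the variation in at least 1 copy of Rnf17, and no wild-type library was analysed here. What the variation leaves of the protein is not given in the sources used here. Whether replicate libraries stem from different mice is not stated. The p-values here therefore set group differences against the spread among libraries of a group, which may be technical only. In bulk testis, fewer cells of a type and less RNA per cell cannot be told apart.

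Levels are given as CPM, counts per 1000000 effective genic reads (the reads assigned to genes, times a TMM factor from the gene table), always in the order replicate 1, replicate 2. Genic reads ran from 5661754 to 50575649 per library and unique MaLR reads from 40159 to 537933, and 177 to 198 of the 204 rows had a unique read. Replicate 1 of both testis groups stood apart, with 19.3 and 18.8 unique transposon reads per 100 genic reads against 6.30 and 8.01 in replicate 2, and both IP groups were closer together at 14.6 and 11.8 (het) and 6.89 and 6.97 (hom). Rnf17 itself was at 507 and 551 CPM in het testis, 50.2 and 97.5 in hom testis, 1261 and 1187 in het IP and 213 and 392 in hom IP. The summed level of 10 elongating spermatid markers, all detected, was 4253 and 23016 CPM in het testis, 290 and 255 in hom testis, 6803 and 6596 in het IP and 309 and 364 in hom IP. For 8 round spermatid markers the sums were 1648 and 3832, 546 and 827, 1792 and 1727, and 771 and 698. Sums for 8 pachytene spermatocyte markers ran from 3224 to 8331 CPM, for 8 spermatogonial markers from 94.0 to 266, for 8 Sertoli cell markers from 377 to 1013, for 7 Leydig cell markers from 213 to 721, and for 7 macrophage markers from 8.32 to 36.3. Among the Leydig cell markers, Insl3 had no read in any library. The fewest markers detected in a library were 7 of 8 for Sertoli cells, 6 of 7 for Leydig cells and 5 of 7 for macrophages.

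As a class, unique MaLR reads summed to 21020 and 10299 CPM in het testis, 16110 and 10053 in hom testis, 25892 and 13641 in het IP, and 7590 and 7948 in hom IP. Outside the first het IP library, MaLR took 9.31 to 13.3% of all unique transposon reads of a library, and in that library 20.5%. The excess in that library came from a single row. MTB_Mm-int sense, the internal sequence of an MT family, held 51.3% of its unique MaLR reads: the row was at 52.8 and 49.0 CPM in het testis, 33.9 and 19.04 in hom testis, 13292 and 41.3 in het IP, and 21.0 and 23.8 in hom IP. Without this row and ORR1E sense, the class summed to 12345 and 13392 CPM in het IP, 7471 and 7827 in hom IP, 20482 and 10088 in het testis and 15726 and 9875 in hom testis. Both hom IP libraries were then below the other 6.

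A second row dominated the multiple reads. ORR1E sense, an ORR1 LTR, was at 11980 and 17.5 CPM in het testis, 8964 and 5.61 in hom testis, 160 and 4.27 in het IP, and 6.61 and 4.83 in hom IP, and made up 81.6% and 81.5% of the multiple MaLR reads of the replicate 1 testis libraries. MTB_Mm-int sense held 42.4% of the multiple MaLR reads of the first het IP library, at 3549 CPM against at most 1.17 CPM elsewhere. With both rows left out, multiple MaLR reads summed to 2708 and 1237 CPM in het testis, 2038 and 560 in hom testis, 4664 and 840 in het IP, and 402 and 405 in hom IP. The pairs of replicates therefore differed more in multiple than in unique reads, except in hom IP. Across the 204 rows, which are not independent replicates, Pearson's r of log2(CPM + 1) between replicates was 0.954 to 0.980 for unique reads and 0.683 to 0.959 for multiple reads, lowest in het IP.

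**Figure D1:**
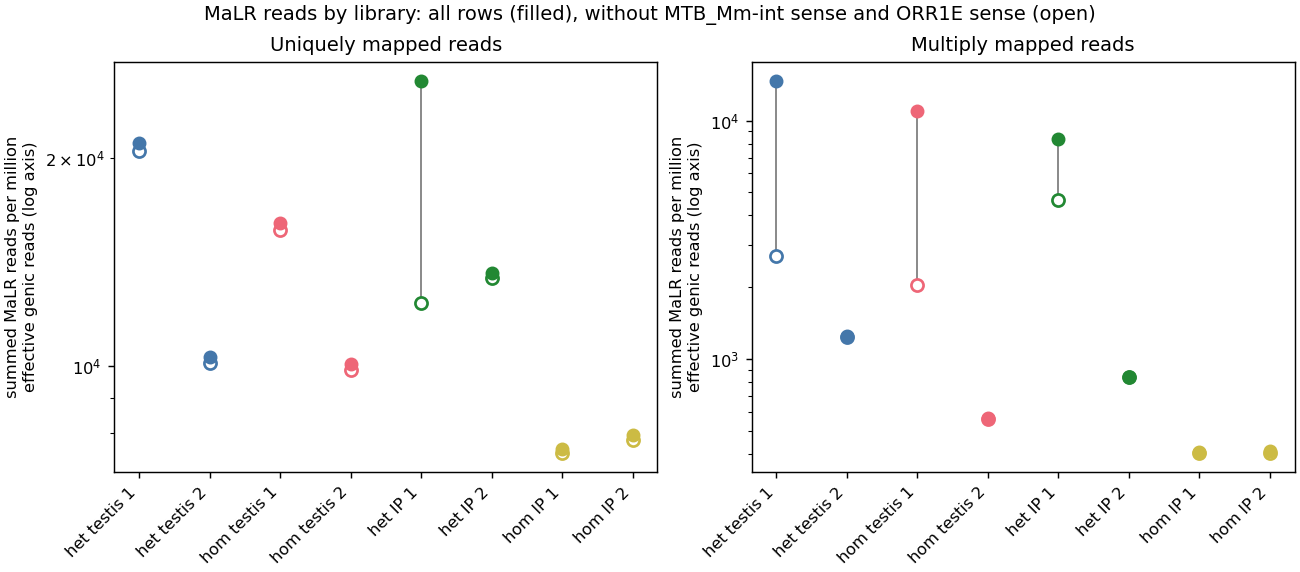
Summed MaLR level in CPM (log axis) in each library, for uniquely mapped (left) and multiply mapped reads (right). Filled points hold all 204 rows and open points leave out MTB_Mm-int sense and ORR1E sense; the first het IP library drops from 25892 to 12345 CPM on the left, and het and hom testis 1 drop from 14689 to 2708 and from 11003 to 2038 CPM on the right.

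Without MTB_Mm-int sense, ORR1 made up 37.5 to 48.7% of the unique MaLR reads of a library, MT 36.2 to 39.6% and MLT 13.0 to 24.3%. The replicate 1 testis libraries exceeded replicate 2 unequally: ORR1 reads by 2.57 times in het and 1.85 times in hom testis, MT reads by 1.97 and 1.52 times, and MLT reads by 1.36 and 1.21 times. In the IPs these ratios lay between 0.906 and 1.05. The 10 rows with the highest median over the 8 libraries, singled out after their values were seen, were 6 ORR1 families in antisense (ORR1D1, ORR1E, ORR1D2, ORR1A2, ORR1B1 and ORR1C2), MTD in both orientations, MTC antisense and MTEa antisense. Together they held 28.4 to 37.9% of the MaLR reads of a library, whereas 33 of the 203 rows had a median under 1 CPM. All 10 are LTRs.

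The family with the most unique reads in each subfamily shows the range of levels. ORR1D1 antisense was at 1149 and 396 CPM in het testis, 1080 and 542 in hom testis, 563 and 680 in het IP, and 486 and 596 in hom IP, so that all 4 groups overlapped. MTD antisense was at 915 and 356, 769 and 438, 546 and 567, and 313 and 283 CPM, with both hom IP libraries lowest of the 8. ORR1E antisense was at 884 and 448, 698 and 372, 424 and 438, and 264 and 268 CPM, again lowest in hom IP. The young MTA_Mm LTR was lower, at 267 and 144, 186 and 89.2, 94.4 and 130, and 68.2 and 55.3 CPM in sense. MLT1D, the old family with the most reads, was at 335 and 269, 215 and 226, 171 and 197, and 229 and 261 CPM in sense, where hom IP was above het IP. In antisense MLT1D went the other way between the IPs, with 85.1 and 70.6 CPM in het and 36.3 and 27.8 in hom. Over the 202 rows with a unique read, both hom IP libraries were below the other 6 in 104 rows (51.5%), beside 40% of all 1239 transposon rows with a read. Both het IP libraries were above the other 6 in 19 rows (9.41%), of which 11 were ORR1, beside 9.52% of all transposon rows.

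**Figure D2:**
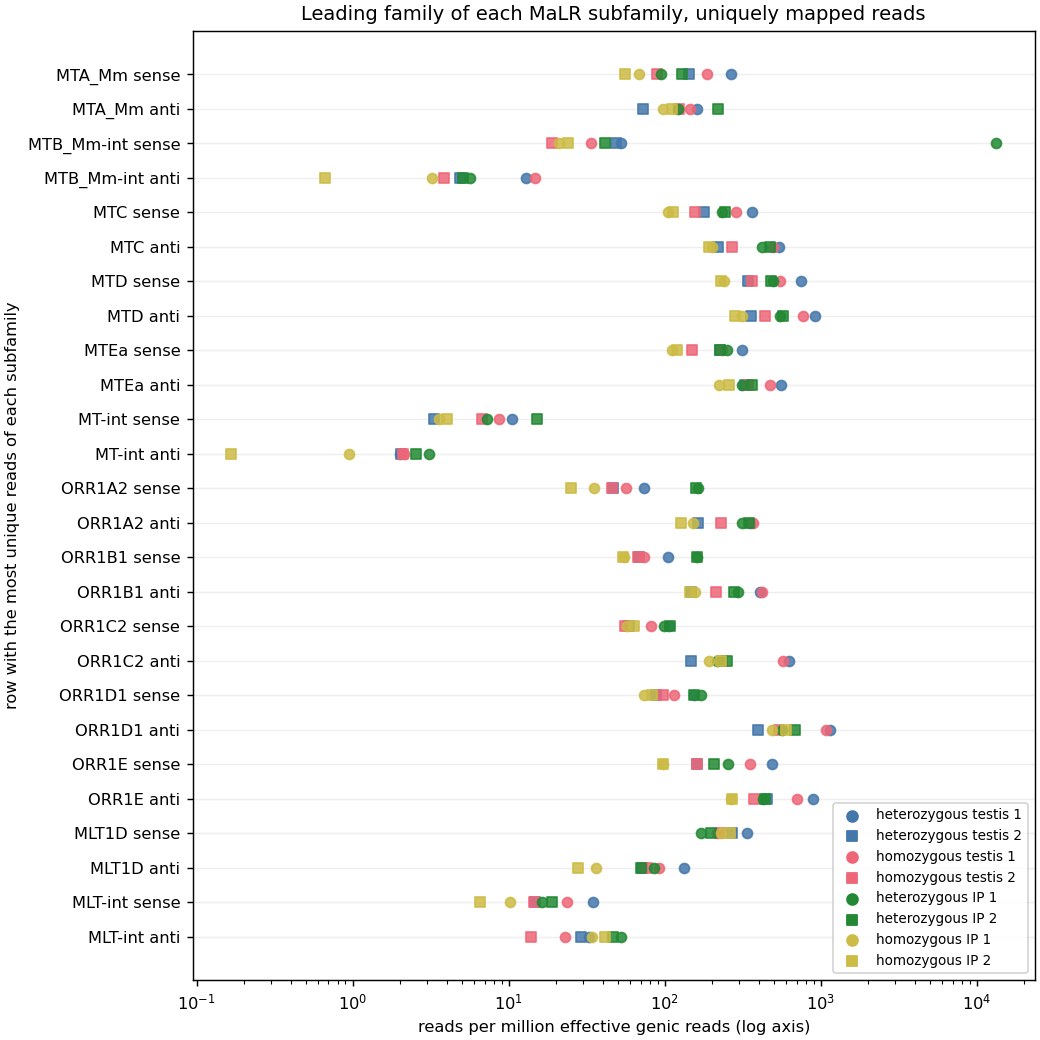
Level in each library (CPM, log axis) of the family with the most unique reads in each MaLR subfamily, in sense and antisense. The yellow hom IP points lie lowest in most rows, the LTR rows of ORR1 are higher in antisense than in sense, and MTB_Mm-int sense has a single library at 13292 CPM.

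Orientation separated LTRs from internal sequences in the MT and ORR1 families, but not clearly in the MLT families. Antisense reads outnumbered sense reads in all 8 libraries in 12 of 12 ORR1 LTR families, 7 of 9 MT LTR families and 5 of 28 MLT1 LTR families, and the reverse held in 0, 0 and 5. Among internal sequences, sense outnumbered antisense in all 8 libraries in 11 of 13 ORR1, 11 of 11 MT and 9 of 29 MLT families. The tables name the orientation but the sources used here do not say how reads were assigned to a strand. Sense reads made up 18.5 and 24.0% of ORR1 LTR reads in het testis, 15.7 and 20.2% in hom testis, 31.0 and 27.6% in het IP, and 20.6 and 19.7% in hom IP. Both het IP libraries were thus above the other 6. MT LTR reads were 42.5 and 48.5%, 38.3 and 38.4%, 42.6 and 39.9%, and 37.4 and 36.9% sense, and MLT1 LTR reads 44.7 to 54.5% sense.

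For internal sequences the group that stood apart was hom IP. ORR1 internal reads were 75.7 and 77.8% sense in het testis, 74.9 and 71.6% in hom testis, 73.5 and 78.5% in het IP, and 87.4 and 91.5% in hom IP. MT internal reads without MTB_Mm-int sense were 70.6 and 79.5%, 72.0 and 76.0%, 71.9 and 77.6%, and 82.9 and 87.8% sense. In both groups the hom IP libraries were above the other 6 without overlap. MLT internal reads did not follow, with 67.2 and 54.9%, 61.6 and 48.2%, 48.8 and 48.9%, and 41.2 and 47.7%. The 95% Wilson intervals of these shares, which cover counting error only, were at most 1.79 percentage points wide for ORR1, 2.58 for MT and 8.10 for MLT. With 2 libraries a group an exact two-sided permutation test of a single value cannot go below p = 0.333, so none of these differences can pass such a test.

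**Figure D3:**
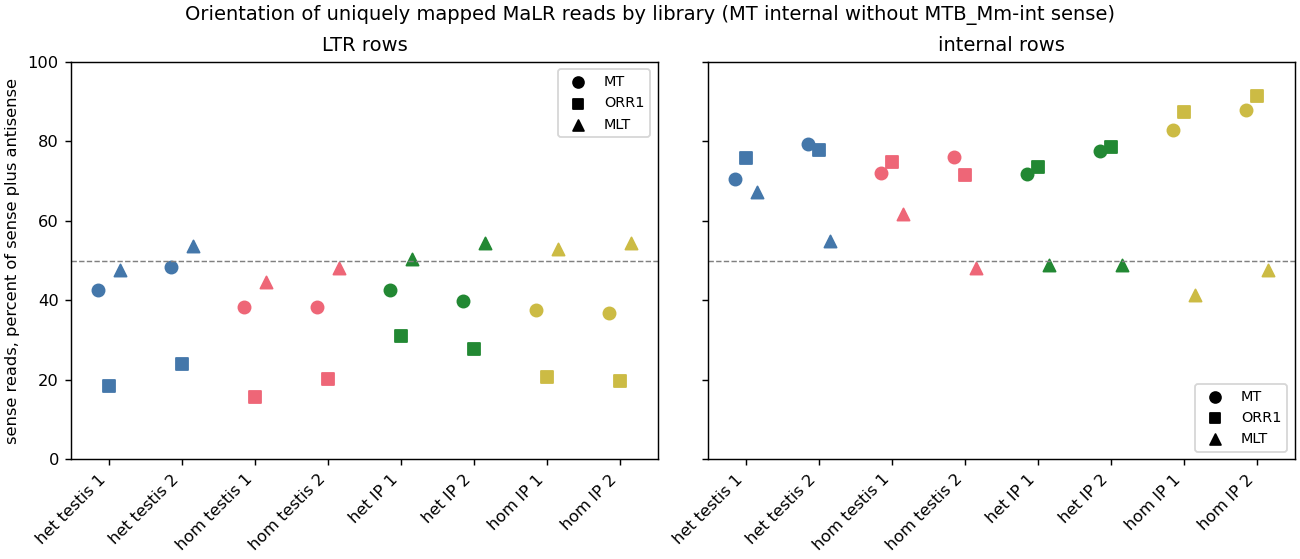
Sense reads as a percent of sense plus antisense unique reads in each library, for LTR rows (left) and internal rows (right) of MT, ORR1 and MLT, with MTB_Mm-int sense left out. ORR1 LTRs lie at 15.7 to 31.0%, highest in het IP, and ORR1 and MT internal sequences lie at 70.6 to 79.5% in 6 libraries and at 82.9 to 91.5% in hom IP.

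The comparison of the 2 IPs asks which RNA was recovered with the antibody from het testis beyond what came down from hom testis. Of 165 MaLR rows that passed the filter on low counts, 103 were higher and 1 was lower in het IP (edgeR quasi-likelihood test, adjusted p under 0.05), or 62.4% higher. Over all 973 transposon rows tested, 53% were called higher and 2.16% lower, 55.2% in all, so most of this share was common to transposons. The median log2 fold change was 0.94 over the MaLR rows and 0.83 over all transposon rows, and 43 of 106 ERVL rows were called higher (median 0.80). So were 148 of 277 ERVK rows (median 0.87), 62 of 125 ERV1 rows (0.84) and 113 of 200 L1 rows (0.86). DESeq2 called 91 MaLR rows higher and 1 lower, beside 48.1% of all rows. Over all 204 rows, the het IP libraries were above the hom IP libraries without overlap in 146 (71.6%) and below them in 6 (2.94%), beside 64.4% and 5.68% of all 1268 transposon rows. Leaving out hom IP 2 lowered the number of calls. Elongating spermatid markers moved the same way (10 of 10 called higher, median 4.72), as did 6 of 8 round spermatid markers. Pachytene spermatocyte markers had 1 of 8 called higher and 4 lower (median -0.56). Sertoli cell markers had 2 of 7 lower, Leydig cell markers 2 of 6 lower, spermatogonial markers 1 of 8 lower and macrophage markers 1 of 6 higher. Over all 13210 genes tested, 31.9% were called. The part of these cell types in the MaLR result was not tested.

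By subfamily, 31 of 40 MT rows, 36 of 50 ORR1 rows and 36 of 75 MLT rows tested were called higher, with medians of 1.02, 1.02 and 0.81. ORR1A, the young ORR1 branch, had 17 of 20 rows called and a median of 1.51. MTA had 4 of 4 (median 1.28), MTB 7 of 8 (1.16), MTC 4 of 4 (1.15), MTD 4 of 4 (0.98) and MTE 10 of 18 (0.90). ORR1B had 5 of 8 (1.01), ORR1C 6 of 8 (0.75), ORR1D 4 of 10 (0.68) and ORR1E 4 of 4 (0.97). MLT1 had 35 of 73 (0.81). MT-int, the MT internal sequence with no letter, had 2 of 2 and the highest of these medians (1.95), and MLT-int had 1 of 2 (0.73). MT-int had only 1006 unique reads over all 8 libraries, and its antisense row a mean of 1.87 CPM. The medians of ORR1C, ORR1D, MLT1 and MLT-int were thus below the 0.83 of all transposon rows and the other 9 above it, and the MLT share of calls was below the 53% of all rows. Differences between subfamilies were not tested.

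Part and orientation divided the rows further. LTR rows were called higher in 40 of 49 in sense (median 1.12) and 23 of 49 in antisense (0.70). Internal rows went the other way, with 17 of 36 in sense (0.56) and 23 of 31 in antisense (1.57). Beside the 53% called higher among all transposon rows, the LTR antisense and internal sense shares were lower and the other 2 higher; these differences were not tested. The antisense log2 fold change exceeded that of the sense row of the same family in 13 of 13 ORR1 and 10 of 11 MT internal families, and the sense value exceeded the antisense value in 12 of 12 ORR1 and 6 of 9 MT LTR families. MLT internal families did not follow, with the sense value higher in 5 of 6.

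ORR1A4-int antisense, the internal sequence of a young ORR1 family, was at 89.1 and 84.2 CPM in het IP and 10.2 and 3.67 in hom IP, beside 75.4 and 48.8 in het testis and 42.8 and 42.6 in hom testis. The groups did not overlap and its log2 fold change between the IPs was 3.66 (SE 0.36, edgeR adjusted p = 2.15e-04). Its sense row was at 257 and 367 CPM in het IP and 147 and 159 in hom IP, a log2 fold change of 1.03 (SE 0.21).

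MTA_Mm-int antisense was at 87.6 and 98.6 CPM in het IP, 17.8 and 11.2 in hom IP, 61.9 and 26.3 in het testis and 53.4 and 37.0 in hom testis. Both het IP libraries were the highest and both hom IP libraries the lowest of the 8, and the log2 fold change between the IPs was 2.69 (SE 0.25, edgeR adjusted p = 1.41e-04). The sense row of MTA_Mm-int, at 200 and 298 against 82.4 and 70.0 CPM, had a log2 fold change of 1.71 (SE 0.23).

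Among rows chosen after their values were seen, ORR1A2 sense, an LTR, was at 163 and 158 CPM in het IP and 35.0 and 25.2 in hom IP, against 73.6 and 46.8 in het testis and 56.2 and 45.8 in hom testis. Here too the het IP libraries were the highest and the hom IP libraries the lowest (log2 fold change between the IPs 2.42, SE 0.21, edgeR adjusted p = 1.11e-04). ORR1A3-int antisense had a log2 fold change of 2.64 (SE 0.27).

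MTB_Mm-int sense was also called (log2 fold change 8.22, SE 2.01, edgeR adjusted p = 0.00795), but its ratio of het to hom IP was 634 for replicate 1 and 1.73 for replicate 2. The row called lower was MLT1F2 antisense, of an old LTR family, at 32.4 and 31.3 CPM in het IP and 45.5 and 64.2 in hom IP (log2 fold change -0.78, SE 0.22, edgeR adjusted p = 0.0143).

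Scaling within the transposon table, which removes what all transposons share, moved the median of all rows from 0.83 to -0.011 and left 37 of 163 MaLR rows called, 22 higher and 15 lower, beside 31.6% of all 965 rows (13.9% higher and 17.7% lower). Of these 37, 23 were among the 104 called by genic scaling. Relative to other transposons, ORR1A gave 9 of the 22 higher rows, MLT1 6, MTA and MTB 2 each, and MTE, ORR1B and ORR1D 1 each. The 15 lower rows were 6 of MLT1, 4 of MTE, 2 each of ORR1B and ORR1C and 1 of ORR1D. Of the higher rows 10 were internal antisense and 8 LTR sense, and of the lower rows 9 were LTR antisense and 0 internal antisense. In the multiple reads edgeR called 0 of 64 MaLR rows (15 with an unadjusted p under 0.05) and 0% of all 404 rows, whereas DESeq2 called 47 of the 64 higher, beside 59.9% of all rows. There het IP 1 was far above het IP 2 (4664 and 840 CPM without the dominant rows), and leaving out het IP 2 raised the number of edgeR calls. MTA_Mm-int sense had the highest mean of the multiple-read rows tested. It was at 206 and 179 CPM in het IP and 65.0 and 75.5 in hom IP (log2 fold change 1.45, SE 0.60, edgeR adjusted p = 0.156). Its groups did not overlap.

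**Figure D4:**
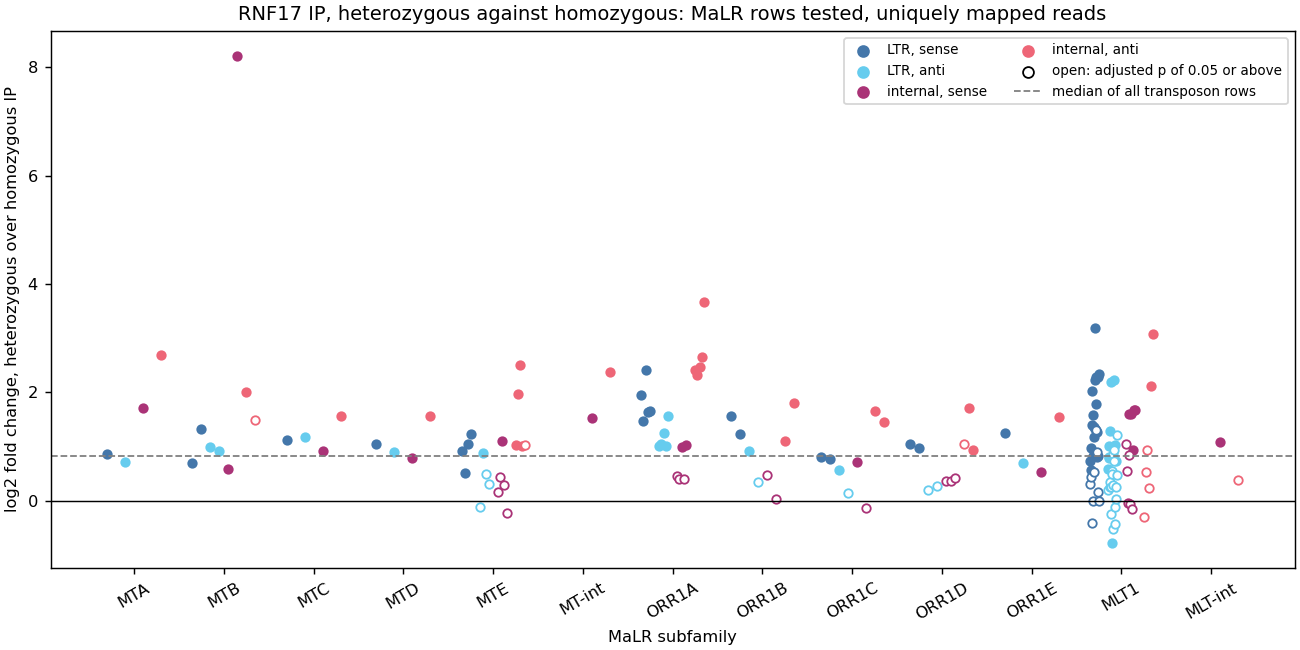
Log2 fold change of each MaLR row tested between het and hom IP (above 0: higher in het), by subfamily, part and orientation, for uniquely mapped reads. Filled points passed an edgeR adjusted p of 0.05; internal antisense rows of MT and ORR1 (median 1.57 and 1.71) lie above the median of all transposon rows of 0.83 (dashed), and MTB_Mm-int sense at 8.22 rests on a single library.

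Each IP was also set against the testis libraries of its genotype; these comparisons share libraries with the one above, so their values stand side by side and add no separate support. In hom IP, 44 of 170 MaLR rows were lower and 0 higher than in hom testis (edgeR), or 25.9%, beside 25.7% called and 24.2% lower among all 997 transposon rows. DESeq2 called 49 lower, beside 27.3% of all rows. The median was -0.95 over MaLR rows and -0.80 over all rows. Scaled within the transposon table, 2 of 172 rows were higher and 11 lower, beside 16% of all 1022 rows called (6.26% higher and 9.78% lower). Internal antisense rows made up 24 of the 44, with 12 of 13 ORR1 rows (median -2.20) and 10 of 11 MT rows (-1.79) called. The sense rows of the same internal families had medians of -0.20 and -0.70 with 0 called in both groups. The number of calls depended on single libraries, falling without either hom IP library and rising without hom testis 2.

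ORR1A4-int antisense, with the levels above, fell by 2.63 on the log2 scale from hom testis to hom IP (SE 0.51, edgeR adjusted p = 2.60e-05), while its sense row was at 186 and 113 CPM in hom testis and 147 and 159 in hom IP. ORR1A2-int antisense was at 74.9 and 37.4 CPM in hom testis and 16.6 and 10.7 in hom IP (log2 fold change -2.04, SE 0.48, edgeR adjusted p = 4.66e-04). ORR1D1-int antisense was at 76.3 and 42.7 CPM in hom testis and 15.1 and 20.3 in hom IP (log2 fold change -1.74, SE 0.48, edgeR adjusted p = 0.00265). The groups did not overlap in these 3 antisense rows, and het testis and het IP were above hom IP in each of them.

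In the multiple reads, 4 of 68 MaLR rows were lower in hom IP (edgeR), beside 6.58% of all 441 rows. MLT1B sense was at 119 and 2.88 CPM in hom testis and 0.945 and 2.00 in hom IP. The other 3, named after their values were seen, were ORR1B1 antisense (62.5 and 3.18 against 1.32 and 0.833 CPM), MLT1N2 sense (4.36 and 1.5 CPM against 0 reads in both hom IP libraries) and ORR1E sense, whose groups overlapped. In each of the 4, hom testis 1 was above hom testis 2, and without hom testis 1 none of the MaLR rows was called (0 by edgeR).

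Het IP gave another picture against het testis. A single MaLR row of 172 was called, MTB_Mm-int sense (log2 fold change 7.03, edgeR adjusted p = 4.00e-07), beside 0.194% of all 1029 rows (0.0972% higher and 0.0972% lower), and its groups overlapped. Without het IP 1 its log2 fold change was -0.30, and DESeq2 called 0 MaLR rows, this one included (adjusted p = 0.219), beside 0.389% of all rows. The median was -0.48 over MaLR rows and -0.34 over all rows. Of the 172 rows, 50 had a positive log2 fold change, among them 11 of 12 ORR1 LTR sense rows (median 0.81), 4 of 5 ORR1A LTR antisense rows (0.36), 3 of 5 ORR1A internal antisense rows (0.48) and both internal rows of MTA (1.21). In 9 of the 12 ORR1 LTR sense rows both het IP libraries were above both het testis libraries, which held for 22 of 204 MaLR rows (10.8%) and 13.9% of all 1268 rows. None of these 12 rows passed the test (0 called), and the difference between sets was not tested. ORR1 LTR antisense rows had a median of -0.18 and MT LTR sense rows of -0.39. Single testis libraries set the number of calls here, which rose when either het testis library was left out. In the multiple reads edgeR called 0 of 125 rows, beside 0% of all 739 rows, and ORR1E sense had a log2 fold change of -6.19 (SE 1.91, edgeR adjusted p = 0.461), or 2.24 without het testis 1.

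The interaction, the log2 IP-to-testis ratio in het minus that in hom, tests whether the 2 genotypes differ in recovery once the lysate is taken into account. EdgeR called 0 of 176 MaLR rows (17 with an unadjusted p under 0.05), beside 0.0944% of all 1059 rows, and the medians were 0.62 and 0.54. The number of calls rose when het testis 1 was left out. MTB_Mm-int sense, the row with the highest mean, had an interaction of 7.27 (SE 1.90, edgeR adjusted p = 0.208), which was -0.063 without het IP 1. DESeq2 called 3 MaLR rows, beside 1.89% of all rows, named here after their values were seen. ORR1A4-int antisense had an interaction of 3.11 (SE 0.79, edgeR adjusted p = 0.208, DESeq2 adjusted p = 0.0146) and MTA_Mm-int antisense of 2.72 (SE 0.78, edgeR adjusted p = 0.211, DESeq2 adjusted p = 0.0431). MLT1I-int antisense had an interaction of 3.30 and was at 9.99 and 7.24 CPM in het testis, 12.9 and 25.8 in hom testis, 6.26 and 16.9 in het IP, and 4.16 and 1.17 in hom IP. Rows that lay above their testis libraries in het IP and below them in hom IP, without overlap on either side, numbered 15 of 204 (7.35%), beside 77 of all 1268 transposon rows (6.07%). These were 8 ORR1, 3 MT and 4 MLT rows, and they included ORR1A2, ORR1A3, ORR1B1 and ORR1D1 in sense and the 2 internal antisense rows of ORR1A3 and ORR1A4. In the multiple reads edgeR called 0 of 126 rows, beside 0% of all 754 rows, and 7 of the 126 had an unadjusted p under 0.05, while DESeq2 called 0, beside 0.928%. ORR1E sense there had an interaction of 3.43 (SE 3.55, edgeR adjusted p = 0.530).

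**Figure D5:**
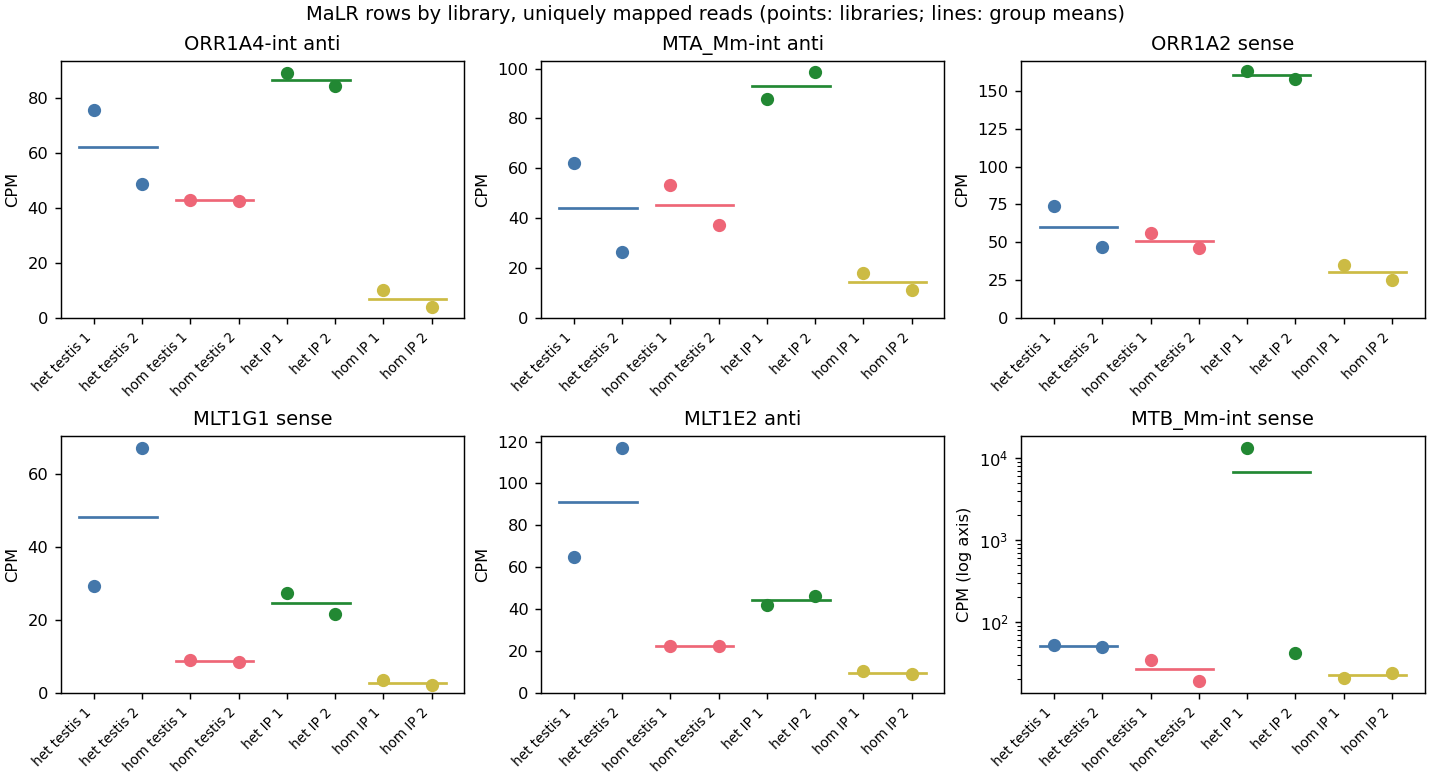
Levels of 6 MaLR rows in each library (CPM, unique reads; points are libraries, lines group means; log axis for MTB_Mm-int sense only). The 3 upper rows are highest in het IP and lowest in hom IP, MLT1G1 sense and MLT1E2 antisense are lower in hom than in het samples of the same kind, and MTB_Mm-int sense is high in het IP 1 alone.

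Whole testis asks whether MaLR transcripts differ in level between hom and het animals. No MaLR row was called: 0 of 177 in unique reads by edgeR (4 with an unadjusted p under 0.05) and 0 by DESeq2, beside 0% of all 1070 transposon rows. In multiple reads edgeR called 0 of 126 (1 with an unadjusted p under 0.05), beside 0% of all 748 rows, and ORR1E sense had a log2 fold change of -0.42 (SE 1.54). Elongating spermatid markers had a median of -5.18 in the same comparison (10 of 10 called lower by DESeq2, 0 by edgeR). Over all 14170 genes tested, DESeq2 called 696 and edgeR 0. Round spermatid markers had a median of -2.45 and pachytene spermatocyte markers of -0.26. Medians were positive for spermatogonial (0.88), Sertoli cell (0.78), Leydig cell (1.25) and macrophage markers (0.74). The part of these cell types in the MaLR values was not tested. The median log2 fold change of hom over het testis was -0.31 over MaLR rows and -0.28 over all rows, and 33 of the 177 were positive. Scaling set the sign: with genic totals and no TMM factor the MaLR median was 0.15 and that of all rows 0.17, and with scaling within the transposon table they were -0.026 and 0.017. Without het testis 1 the MaLR median was 0.44. ORR1D1 antisense, the row with the highest mean, had a log2 fold change of 0.07 (SE 0.98, edgeR adjusted p = 0.998).

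By group the medians were -0.43 for MLT, -0.25 for MT and -0.28 for ORR1, and 9 of 12 ORR1 LTR antisense rows were positive. The groups did not overlap in 39 of the 204 rows that were lower (19.1%) and 6 that were higher (2.94%) in hom testis, beside 14.9% and 3.63% of all 1268 transposon rows and the 0% called. MLT rows, 114 of the 204, were 31 of the 39. Among them, 2 old LTR rows, chosen after their values were seen, are given in full because the authors' deposited table lists them. MLT1G1 sense was at 29.3 and 67.2 CPM in het testis, 9.03 and 8.52 in hom testis, 27.4 and 21.7 in het IP, and 3.40 and 2.00 in hom IP. In testis edgeR gave a log2 fold change of -2.46 (SE 0.86) with an adjusted p of 0.784, and DESeq2 an adjusted p of 0.277.

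MLT1E2 antisense was at 64.8 and 117 CPM in het testis, 22.4 and 22.1 in hom testis, 42.1 and 46.4 in het IP, and 10.4 and 8.83 in hom IP, a log2 fold change in testis of -2.03 (SE 0.88, edgeR adjusted p = 0.998). In multiple reads the same row was at 47.6 and 114, 4.36 and 1.25, 64.6 and 25.5, and 1.32 and 1.00 CPM. Every hom library was below every het library for both rows in unique reads. In the opposite orientation, MLT1G1 antisense, at 22.6 and 48.2 CPM in het and 15.8 and 58.2 in hom testis, overlapped between genotypes. MLT1E2 sense did not, at 63.9 and 48.8 CPM in het and 35.2 and 21.997 in hom testis, while its IP libraries overlapped (29.6 and 28.3 CPM in het, 28.5 and 29.8 in hom). The authors' deposited table of testis differences lists 734 entries, of which 9 are transposon rows, all lower in hom, and these are its 2 MaLR rows. Of the 9 transposon rows, 4 have an adjusted p under 0.05 in that deposited table. In the authors' deposited table MLT1G1 sense had mean values of 713 in het and 128 in hom, a log2 fold change of -1.85 and an adjusted p of 0.0162. MLT1E2 antisense had 1341 and 325, -1.57 and 0.0575 in the authors' deposited table. The hom to het ratios of these means were 0.180 and 0.243, so the deposited fold changes are not the log2 ratios of the means. Between the IPs both rows were called higher in het, with log2 fold changes of 3.20 (SE 0.35) and 2.20 (SE 0.23) by edgeR, and their interactions were 0.72 and 0.17 with edgeR adjusted p of 0.799 and 0.965.

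The share of multiple reads differed among subfamilies. Without the 2 dominant rows, MTA reads were 35.4 and 37.6% multiple in het testis, 36.5 and 35.3% in hom testis, 45.9 and 28.6% in het IP, and 32.8 and 36.6% in hom IP, the highest of the lettered MT and ORR1 subfamilies in each. ORR1A was at 16.8 and 14.97%, 19.7 and 10.1%, 22.2 and 7.39%, and 11.6 and 11.6%. MTE, by contrast, was at 8.37 and 6.37%, 7.94 and 2.08%, 27.2 and 1.82%, and 1.56 and 1.26%. For MaLR as a class the share was 11.7 and 10.9% in het testis, 11.5 and 5.36% in hom testis, 27.4 and 5.90% in het IP, and 5.11 and 4.92% in hom IP. Het IP 1 was thus the highest and hom IP the lowest for the class. In het IP 1 ERVL was at 25.1%, also its highest library, and L1 at 34.0%, where het testis 1 and 2 and hom testis 1 were at 33.8, 35.2 and 35.1%.

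Genes that act in transposon control were read from a list of 33, of which 32 are in the gene table. Between the IPs, 5 of 31 tested were higher and 3 lower in het IP, beside 31.9% of all 13210 genes, with a list median of -0.14 and a median of -0.059 over all genes. Gtsf1, a PIWI cofactor, had a log2 fold change of 2.32 (SE 0.33), Rnf17 of 2.01 (SE 0.28), and Cbx5, a heterochromatin protein, of 1.07 (SE 0.19). In hom IP over hom testis, Rnf17 RNA alone was called (higher by 2.03, SE 0.47, edgeR adjusted p = 0.0457), beside 3.06% of all 13439 genes. Between hom and het testis 0 of 32 were called by edgeR, beside 0% of all 14170 genes, with a list median of 0.18, and DESeq2 called Rnf17 lower (log2 fold change -2.84, edgeR adjusted p = 0.135, DESeq2 adjusted p = 5.51e-04). DESeq2 called 696 of the 14170 genes there. In the interaction and in het IP over het testis 0 members were called, beside 0% of all genes.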

How the data were processed

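Reads per gene and per transposon family were deposited by the authors as counts, with uniquely and multiply mapped transposon reads in separate tables split into sense and antisense. STAR, DESeq and the mm9 genome are named in the submitters' processing notes; versions, strand settings and the rule for assigning reads to repeats are unstated there. The authors also deposited a table of testis differences with columns of normalised signal, log2 fold change, its standard error (held here as a score) and p-value, used only where named. No file used here gives positions or sequences of the families. The lysate columns of the IP tables repeat the testis columns (12 repeated columns, identical), so each library was used once.

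The counts were tested with edgeR 4.0.16 (R 4.3.3), with filterByExpr, quasi-likelihood fits and library sizes set to genic reads times TMM factors of the gene table over 8 libraries. P-values were adjusted by Benjamini-Hochberg over each whole transposon table, and a row was called at an adjusted p under 0.05. The SE given with an edgeR log2 fold change is its absolute value divided by the square root of the quasi-likelihood F statistic. Fits held only the groups compared, and the interaction all 4. The fits were tested on simulated data with 200 changed rows. Each simulated row had the same mean level in all libraries of a group, so single-library excesses such as that of MTB_Mm-int sense were not covered. Alternatives were DESeq2 1.42.0, other scalings, no filter, a replicate block and leaving out each library. Rows named with a test were, per comparison and table, up to 3 called rows in each direction. They had the largest change among those with a mean of at least 20 CPM and no overlap of groups. Where none was called, the tested row with the highest mean was named. Rows named with levels were the families with the most unique reads in each subfamily. Genes named from the transposon control list were Rnf17 and up to 3 called genes with the smallest adjusted p. Members and lists were chosen with earlier results of these data known.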

Additional observations from a re-analysis of the deposited data

How the results depend on the processing

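The calls rested on 2 libraries a group, and depth was lowest for multiple reads in hom IP 1, with 2165 MaLR reads. Counts of called MaLR rows that moved by more than 1.5 times were as follows; the cause was not tested. With DESeq2, calls were 47 for multiple reads between the IPs, 0 for unique reads in het IP over het testis, 21 for multiple reads in hom IP over hom testis and 3 in the unique interaction, and control genes called were 1 in testis and 2 in hom IP over hom testis. Over all genes, DESeq2 called 696 of 14170 in testis and 1293 of 13439 in hom IP over hom testis. With scaling within the transposon table, unique calls were 37 between the IPs, 0 in het IP over testis and 13 in hom IP over testis, and multiple calls 0 in hom IP over testis. TMM within the comparison gave 1 multiple call in het IP over testis and 1 in hom IP over testis, and genic totals without TMM factors 3 in the unique interaction. With no filter, multiple calls were 4 between the IPs, 1 in het IP over testis and 1 in the interaction, and the unique interaction had 1.

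The labels tie libraries of different groups by replicate number alone, with 2 pairs a comparison. With the replicate block, unique calls were 2 in testis, 0 in het IP over testis and 6 in the interaction, and multiple calls 4 between the IPs and 1 in hom IP over testis. Deviations of same-numbered libraries correlated in testis at 0.609 in the gene table, 0.488 in unique and 0.513 in multiple reads, and in hom IP against testis at -0.139, -0.0716 and 0.0563. For the other pairs of groups the values ran from 0.0153 to 0.201. A crossed replicate block for hom IP over testis, chosen after seeing the data, gave 36 unique and 0 multiple calls.

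Leaving out 1 library gave ranges, for unique and then multiple reads, of 0 to 1 and 0 to 1 in testis, 62 to 91 and 1 to 149 between the IPs, 0 to 90 and 0 to 2 in het IP over testis, 0 to 107 and 0 to 88 in hom IP over testis, and 0 to 53 and 0 to 3 in the interaction. Fits that leave 1 library in a group assume that it varies like the others. These ranges count MaLR rows only, with no share over all transposon rows beside them, so they do not show a trait of MaLR.

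Signs turned in some results when 1 library was left out. ORR1D1 antisense in testis ran from -0.51 (without hom testis 1) through -0.50 (without het testis 2) to 1.03, and MTB_Mm-int sense from -0.30 (without het IP 1) to 8.03 over het testis and from -0.063 (without het IP 1) to 8.27 in the interaction. ORR1E sense in multiple reads ran from -10.06 through 0.58 to 8.005 in testis, from -10.5 to 2.24 in het IP over testis, from -10.6 to 0.026 in hom IP over testis, and from -6.215 through -0.84 to 11.9 in the interaction. It also turned to 0.030 (scaled within the table) and 0.054 (genic totals) in testis and to -0.33 with the replicate block in the interaction, and MTA_Mm-int sense in multiple reads between the IPs turned to -0.25 scaled within the table. The log2 ratio of summed MaLR levels in hom IP over testis moved from -0.75 to -1.26 for unique reads with genic totals, and leaving out 1 library gave -4.75 to -0.46 for multiple reads. Between the IPs the ratio for multiple reads moved from 3.49 to 0.996 as a share of transposon reads, and leaving out 1 library gave 1.04 to 4.35. The mean sense share in hom IP was 45.3%, or 44.4% without the 2 dominant rows. Of the other settings of the 31 named results, 252 kept direction and call, 44 lost the call, 27 gained it and 14 reversed direction.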
